A study of Mus musculus with 10 samples.

Results

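CpG-dense stretches of the genome that were unmethylated in every WT leukaemia library were followed into leukaemias with a Dnmt3b knockin. They were chosen by WT values: autosomal 1-kb windows (1000 bp) with 60 or more CpG positions listed in any of the 10 libraries, with 3 or more positions read at least 10 times in all 10, and with pooled methylation under 10% in each of the 5 WT libraries. Of 22907 windows covered in this way, 10890 held 60 or more listed positions and 8897 of these were under 10% in all 5 WT libraries. The other 1993 CpG-dense windows reached 10% in at least 1 WT library. Each file lists the cytosines of both strands of a CpG separately, so 60 listed positions correspond to fewer CpG dinucleotides. The 8897 windows held a median of 109 listed positions, or 64 dinucleotides (lowest 31), and 5031 of them held 60 or more dinucleotides.

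Libraries were made by reduced representation bisulfite sequencing (RRBS) of DNA, in which DNA is cut at MspI sites (CCGG) and the unmethylated cytosines of the fragments are turned into thymines before sequencing. The 4 groups were c-kit+ spleen cells of MLL-AF9 leukaemia with the Dnmt3b knockin (3 libraries) and without it (WT, 3 libraries), and spleen cells of cMyc-Bcl2 leukaemia with the knockin (2 libraries) and without it (WT, 2 libraries). MLL-AF9 is a fusion oncoprotein, cMyc a transcription factor and Bcl2 an inhibitor of cell death. The knockin is tetracycline-inducible, and the labels give neither the agent and its timing nor the age of the mice, nor do they say that replicates were separate animals, so p-values reflect the spread among these libraries, which may be technical. The c-kit+ selection is given only for MLL-AF9, so oncogene and cell selection cannot be told apart. RRBS of DNA carries no expression of marker genes or of Dnmt3b against which the cell labels or the knockin could be checked.

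Dnmt3b is a de novo DNA methyltransferase: it adds methyl groups to CpGs that carry none. Most CpGs of a mammalian genome are methylated, but CpG islands, the CpG-dense stretches that hold many gene starts, are as a rule free of methylation in normal cells. In leukaemias and other cancers a subset of islands acquires methylation, often at genes of developmental regulators that are silent in the tissue.

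Depth and background differed between libraries. Over the 8897 windows the pooled reads numbered 3583454 to 6127866 in MLL-AF9 knockin, 3220205 to 4648627 in MLL-AF9 WT, 8398166 and 8782205 in cMyc-Bcl2 knockin, and 3421948 and 9780551 in cMyc-Bcl2 WT replicates 1 and 2. Mitochondrial CpGs, a guide to cytosines that escaped conversion, read as methylated in 2.01 to 3.20% of calls in MLL-AF9 knockin and 1.82 to 2.59% in MLL-AF9 WT. The shares were 0.926% and 1.15% in the cMyc-Bcl2 knockin libraries, against 2.22% and 0.910% in cMyc-Bcl2 WT replicates 1 and 2. WT replicate 1 of cMyc-Bcl2 thus stood apart in both depth and background from the other 3 libraries of that model, and the main results of that model are also given without it, as single values where they had no test.

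The sequences below are promoters, from 250 bases before to 50 after the start of a gene, that lie wholly or mostly in the windows described. Them7, Begain, Gabbr2, Msx1 and Npy gained methylation in cMyc-Bcl2 knockin libraries. Ranbp9, in the densest window of the set, and Cebpb stayed unmethylated in all 10 libraries. Begain encodes a protein of the postsynaptic density, Gabbr2 a subunit of the GABA-B receptor, Msx1 a homeobox transcription factor and Npy neuropeptide Y. Ranbp9 encodes a scaffold protein and Cebpb a transcription factor of myeloid and other cells. Sequences are from RefSeq (GRCm38.p6), and coordinates are in the files' build, mm9, found by matching the spacing of CpGs. Capitals mark the CpGs of which at least 1 cytosine lay in a window of the set and was read 10 or more times in every library. The stretch of Msx1 runs past the end of its window.
Them7, chr2:105064249-105064548, plus strand: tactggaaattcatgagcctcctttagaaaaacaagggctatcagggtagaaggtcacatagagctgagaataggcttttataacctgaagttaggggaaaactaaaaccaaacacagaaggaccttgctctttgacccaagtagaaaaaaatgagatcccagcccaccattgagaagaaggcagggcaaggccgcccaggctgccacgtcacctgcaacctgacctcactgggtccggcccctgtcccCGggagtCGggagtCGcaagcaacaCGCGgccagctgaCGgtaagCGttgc
Begain, chr12:110291477-110291776, minus strand: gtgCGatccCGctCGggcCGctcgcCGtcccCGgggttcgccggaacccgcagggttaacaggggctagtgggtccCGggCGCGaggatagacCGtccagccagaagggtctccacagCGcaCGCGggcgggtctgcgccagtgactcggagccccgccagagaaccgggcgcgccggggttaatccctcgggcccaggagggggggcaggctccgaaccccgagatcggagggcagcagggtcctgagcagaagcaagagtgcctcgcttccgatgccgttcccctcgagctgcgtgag
Gabbr2, chr4:47004537-47004836, minus strand: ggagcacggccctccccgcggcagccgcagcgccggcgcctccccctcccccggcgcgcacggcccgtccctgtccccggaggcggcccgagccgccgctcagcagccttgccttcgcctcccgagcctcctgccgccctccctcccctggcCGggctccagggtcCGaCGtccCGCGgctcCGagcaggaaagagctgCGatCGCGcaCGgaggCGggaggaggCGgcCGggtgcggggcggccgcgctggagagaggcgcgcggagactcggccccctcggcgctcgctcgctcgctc
Msx1, chr5:38215775-38216074, minus strand: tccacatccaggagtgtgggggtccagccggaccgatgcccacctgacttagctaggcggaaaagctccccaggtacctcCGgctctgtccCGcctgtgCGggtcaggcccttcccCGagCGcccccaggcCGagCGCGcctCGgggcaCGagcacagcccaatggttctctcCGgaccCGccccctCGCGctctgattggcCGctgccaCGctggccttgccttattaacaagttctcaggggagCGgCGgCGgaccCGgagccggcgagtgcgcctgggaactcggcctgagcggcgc
Npy, chr6:49772459-49772758, plus strand: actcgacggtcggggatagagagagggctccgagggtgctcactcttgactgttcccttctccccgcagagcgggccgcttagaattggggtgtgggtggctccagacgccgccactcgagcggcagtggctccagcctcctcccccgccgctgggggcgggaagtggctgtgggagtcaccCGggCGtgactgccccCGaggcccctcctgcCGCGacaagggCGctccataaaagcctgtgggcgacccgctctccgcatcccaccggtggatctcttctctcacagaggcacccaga
Ranbp9, chr13:43576293-43576592, minus strand: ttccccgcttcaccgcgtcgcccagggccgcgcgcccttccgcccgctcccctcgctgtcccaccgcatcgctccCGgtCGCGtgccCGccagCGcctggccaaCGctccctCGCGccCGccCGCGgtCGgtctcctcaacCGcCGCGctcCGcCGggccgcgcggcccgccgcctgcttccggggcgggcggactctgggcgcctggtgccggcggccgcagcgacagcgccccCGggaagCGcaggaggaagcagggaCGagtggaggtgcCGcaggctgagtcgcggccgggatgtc
Cebpb, chr2:167514165-167514464, plus strand: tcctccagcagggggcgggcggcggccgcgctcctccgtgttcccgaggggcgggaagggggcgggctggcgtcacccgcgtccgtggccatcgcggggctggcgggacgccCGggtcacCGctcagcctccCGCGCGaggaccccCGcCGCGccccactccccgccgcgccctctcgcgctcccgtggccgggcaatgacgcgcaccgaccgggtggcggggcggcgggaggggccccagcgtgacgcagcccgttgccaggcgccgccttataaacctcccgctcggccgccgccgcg

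In the printed stretch of Begain, 13 of 34 CpGs were covered, and their pooled level was 36.8% and 34.6% in the cMyc-Bcl2 knockin libraries, against 7.14% and 6.95% in cMyc-Bcl2 WT. In that of Gabbr2, 13 of 46 CpGs were covered, at 22.8% and 28.4% in cMyc-Bcl2 knockin and 4.01% and 1.39% in WT. The level was higher in knockin at 12 of the 13 covered cytosines of Begain and at 14 of 14 of Gabbr2, so the difference was spread over the marked CpGs. Msx1 had 20 of 29 CpGs covered, at 26.9% and 14.3% in cMyc-Bcl2 knockin and 9.51% and 2.34% in WT. Npy had 6 of 24 covered, at 31.2% and 19.7% in cMyc-Bcl2 knockin and 2.90% and 0.613% in WT. Them7 is the sparsest of the set, with 10 CpGs of which 7 were covered, and its level was 54.9% and 50.5% in cMyc-Bcl2 knockin and 2.10% and 4.23% in WT. In both knockin libraries each of these 5 stretches lay above both WT libraries. They were picked from gained windows, for which this order is part of the rule, so it is largely built in. Ranbp9 has more CpGs than any of them, 50 with 21 covered, and was at 0.133% and 0.187% in cMyc-Bcl2 knockin and 0.298% and 0.464% in WT. Cebpb, also with 50 CpGs and 8 covered, was at 0% and 0.521% in cMyc-Bcl2 knockin and 1.79% and 0.545% in WT. Both stretches that stayed unmethylated had more CpGs than the 5 that gained, which had 10 to 46. Ranbp9 was printed for its density and the promoters were picked, so nothing on density is read from them.

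Most windows stayed unmethylated in the knockin leukaemias. A window was counted as staying if every knockin library of the model was under 10%. This held for 8576 windows (96.4%) in MLL-AF9 knockin and 8202 (92.2%) in cMyc-Bcl2 knockin, and 8114 (91.2%) were under 10% in all 5 knockin libraries. The densest windows under 10% in all 10 libraries were that of Ranbp9 (331 listed positions), one on chromosome 18 (76401001 to 76402000, 320 positions) and that of A930018O16Rik (319 positions). None of these 3 windows exceeded 1.39% in any library.

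A window was counted as gained if the knockin mean exceeded the WT mean by at least 10 percentage points and the lowest knockin library lay above the highest WT library of its model. In MLL-AF9, 39 windows (0.438%) gained, against a background of 6.29% of all 22907 windows and 2.24% of the 10890 CpG-dense ones. In cMyc-Bcl2, 264 windows (2.97%) gained, against 12.6% of all and 11.1% of CpG-dense windows. The WT libraries chose the windows by their low level, so these shares are given as a description and nothing is read from their distance to the background. Another 282 windows in MLL-AF9 and 431 in cMyc-Bcl2 neither stayed nor gained: 1 knockin library or more reached 10%, but the groups overlapped or differed by less. The median gain of the gained windows was 14.0 points for MLL-AF9 and 14.7 for cMyc-Bcl2, and the largest were 47.6 and 49.6 points. Gains of 20 points or more were seen in 7 windows for MLL-AF9 and 50 for cMyc-Bcl2. Without cMyc-Bcl2 WT replicate 1, the library of high background, 451 windows gained in cMyc-Bcl2. In MLL-AF9 the count was 71 without knockin replicate 3, 72 without WT replicate 2, 59 without WT replicate 3 and 73 without cMyc-Bcl2 WT replicate 1, which also takes part in choosing the windows.

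In MLL-AF9, 10 of 1856 windows with 60 to 79 listed positions gained, 12 of 1832 with 80 to 99, and 17 of 5209 with 100 or more, that is 0.539%, 0.655% and 0.326%. In cMyc-Bcl2 the counts were 62, 54 and 148, or 3.34%, 2.95% and 2.84%. With the densest class split after its values were seen, 108 of 3144 windows (3.44%) with 100 or more but under 150 positions and 40 of 2065 (1.94%) with 150 or more gained in cMyc-Bcl2. For MLL-AF9 the counts were 12 (0.382%) and 5 (0.242%). The windows that stayed made up 95.15%, 95.96% and 96.99% of the 3 steps in MLL-AF9 and 91.11%, 92.03% and 92.63% in cMyc-Bcl2. No gain of 20 points or more occurred at 100 or more positions in MLL-AF9, whereas 22 of the 50 in cMyc-Bcl2 lay there. Shares by density were not tested, since windows are not replicates.

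**Figure D1:**
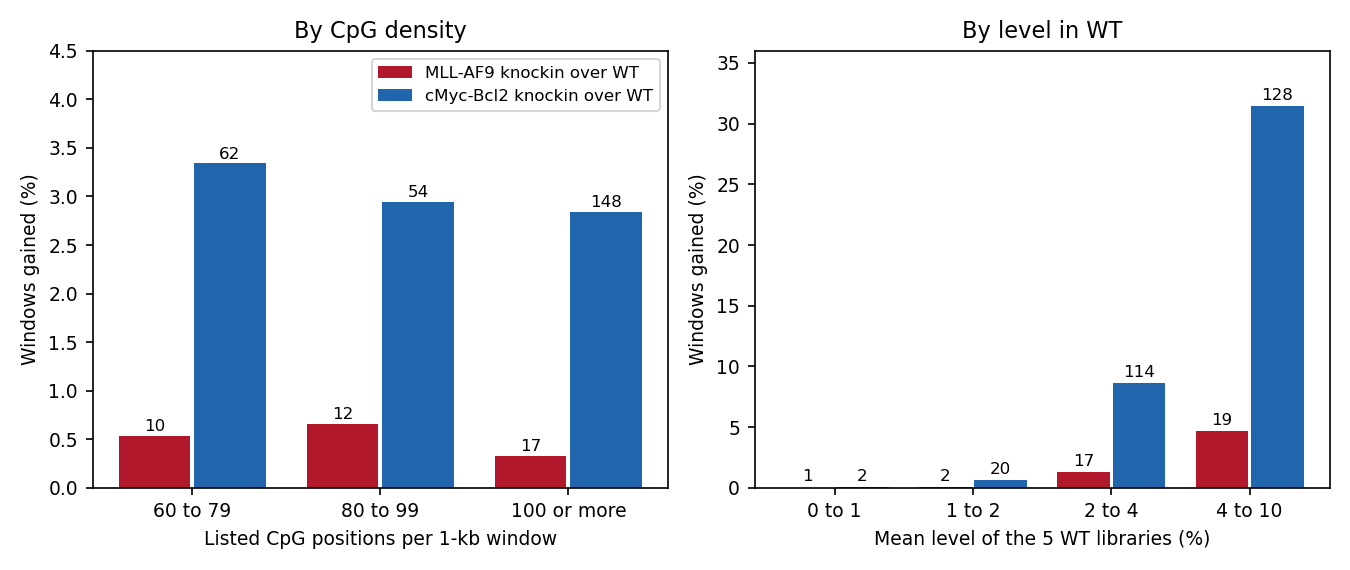
Share of windows gained (percent, y axis) by listed CpG positions per 1-kb window (left) and by the mean level of the 5 WT libraries (right), for MLL-AF9 (red) and cMyc-Bcl2 (blue), with the number of gained windows above each bar. By density the share lay between 2.84% and 3.34% in cMyc-Bcl2 and between 0.326% and 0.655% in MLL-AF9, and by WT level it reached 31.4% at 4 to 10% in cMyc-Bcl2.

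The share of windows gained rose with the residual level in WT. Of 3952 windows with a WT mean under 1%, 1 gained in the MLL-AF9 model and 2 (0.0506%) in cMyc-Bcl2. Of the 407 windows at 4 to 10% in WT, 19 (4.67%) gained in MLL-AF9 and 128 (31.4%) in cMyc-Bcl2. The steps between were at 0.0622% and 1.28% in MLL-AF9 and at 0.622% and 8.60% in cMyc-Bcl2, for 3213 windows at 1 to 2% and 1325 at 2 to 4%. Windows at 4 to 10% were also the ones that least often stayed, 56.5% in MLL-AF9 and 28.3% in cMyc-Bcl2, against 99.92% under 1% in each model. The WT level chose the windows and is also part of the difference that defines a gain. These steps are therefore a description, and they are not ranked against the density steps. The plot of gained windows by step shows both divisions side by side.

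Gained windows differed from the rest in more than the WT level. They had a median of 9 covered positions in MLL-AF9 and 11 in cMyc-Bcl2, against 15 over all windows, so their levels rest on fewer cytosines. The mean reads per window were also lower, at a median of 275 in knockin and 196 in WT for the gained windows of MLL-AF9, against 470 and 357 over all windows. Of the 264 gained windows of cMyc-Bcl2, 66 had a covered window of lower CpG density within 2 kb, whose WT level had a median of 11.4%, against 1.99% beside all windows. Of the 264, 55 (20.8%) had another window of the set directly beside them, against 31.3% of all windows. Of the 264, 8 (3.03%) lay next to another gained window.

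Within a gained window the methylation was spread over its covered cytosines. The median gained window had 61.9% of its covered positions higher by 10 points or more in MLL-AF9 and 58.9% in cMyc-Bcl2, and every covered position was higher in knockin in 30 of 39 and 127 of 264 windows. The covered positions spanned a median of 108 bp in MLL-AF9 and 151 bp in cMyc-Bcl2, so a window's level describes a short part of its 1000 bp. The strands are listed separately in the files, and both enter the pooled level. The windows were chosen by a gain pooled over these same cytosines. Higher values at most positions and on both strands are therefore largely built in. Both strands were measured in 22 gained windows of MLL-AF9, and both were higher in 22. In cMyc-Bcl2 both were higher in 136 of 137 windows, and both by 10 points or more in 91.

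Because WT values chose the windows, a WT library can only exceed 10% in windows it did not help to choose. Each WT library was therefore held out in turn, and windows under 10% in the other 4 were read in it and in the knockin libraries. The MLL-AF9 knockin libraries reached 10% in 2.90 to 3.33%, 2.42 to 2.76% and 0.957 to 1.12% of such windows, depending on the library held out. The held-out WT libraries of MLL-AF9 did so in 0.781%, 1.47% and 0.979%. Knockin replicates 1 and 2 lay above the 3 WT libraries, and replicate 3 lay among them. In cMyc-Bcl2 the knockin libraries reached 10% in 6.03 to 7.31% and 5.89 to 6.92% of windows, against 2.70% and 1.13% in the held-out WT replicates 1 and 2. At a level of 20% the cMyc-Bcl2 knockin libraries held 1.71 to 2.61% of windows, against 0.295% and 0.122% in held-out WT. The MLL-AF9 knockin libraries held 0.579 to 0.808%, 0.480 to 0.642% and 0.122 to 0.177% at that level, against 0.123%, 0.476% and 0.122% in held-out WT. Knockin replicates 1 and 2 of MLL-AF9 lay above its WT libraries there, replicate 2 by little, and replicate 3 lay among them.

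**Figure D2:**
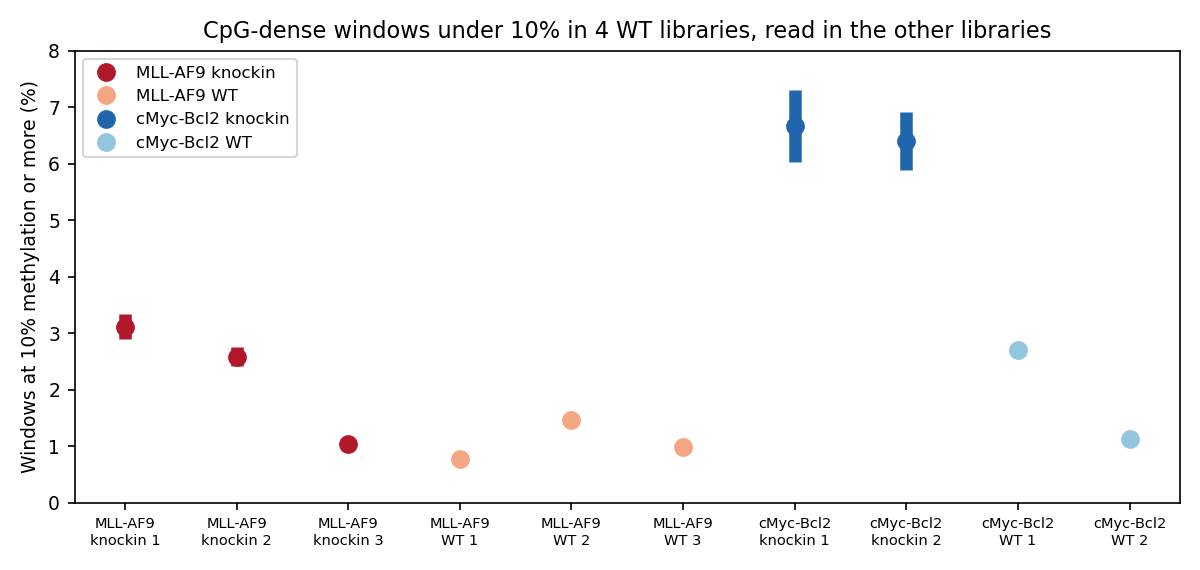
Share of CpG-dense windows at 10% methylation or more (y axis, percent) per library (x axis), among windows under 10% in 4 WT libraries. WT points are the library held out, and knockin bars span the 5 choices of held-out library with a point at the middle of the span; both cMyc-Bcl2 knockin libraries lie at 5.89% or above and the highest WT library is at 2.70%.

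The choice was also turned round. In all 5 knockin libraries 8237 CpG-dense windows were under 10%. Among them WT was higher by 10 points without overlap in 1 window (0.0121%) of MLL-AF9 and 4 windows (0.0486%) of cMyc-Bcl2. The same held for 0.188% and 1.75% of all 22907 windows and for 0.101% and 0.156% of CpG-dense ones. Knockin values chose the windows here, so nothing is read from the distance. All WT libraries were under 10% in 99.4% of these windows in MLL-AF9 and 99.1% in cMyc-Bcl2. Windows unmethylated in knockin libraries were thus nearly all unmethylated in WT too.

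A test of knockin against WT needs windows chosen by other libraries. CpG-dense windows under 10% in the WT libraries of the other model numbered 9322 for MLL-AF9 and 9325 for cMyc-Bcl2. In MLL-AF9 the mean level over them was 2.67%, 2.71% and 2.09% in knockin and 1.70%, 1.95% and 1.77% in WT, a difference of 0.685 points. Knockin and WT did not overlap, and a two-sided exact permutation of the libraries had p = 0.1, which 3 against 3 libraries cannot go below (0.33 after Benjamini-Hochberg adjustment over 16 comparisons). In cMyc-Bcl2 it was 3.09% and 2.97% in knockin and 2.41% and 1.63% in WT, a difference of 1.01 points (exact permutation p = 0.33, the smallest that 2 against 2 allow; adjusted p = 0.33). Neither design can pass 0.05, so these p-values do not separate a difference from none. The MLL-AF9 difference was 0.414 points once each library's mitochondrial share was subtracted (exact permutation p = 0.3). It was 0.365 points when positions needed 20 reads and 0.417 points when WT had to be under 5% (exact permutation p = 0.1 for each). The cMyc-Bcl2 difference was 1.44 points without its WT replicate 1 and 0.621 points without its WT replicate 2. It was 0.208 points when positions needed 20 reads, with overlapping libraries (exact permutation p = 1), and 0.412 points when WT had to be under 5%. On the median over windows it turned to -0.275 points (exact permutation p = 0.33), and to -0.0266 points without WT replicate 1.

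The share of such windows at 20% or more was 1.57%, 1.24% and 0.493% in MLL-AF9 knockin and 0.311%, 0.955% and 0.386% in WT. These groups overlapped (exact permutation p = 0.2, adjusted p = 0.33). In cMyc-Bcl2 the share was 3.39% and 2.77% in knockin and 0.590% and 0.322% in WT, without overlap (exact permutation p = 0.33, adjusted p = 0.33). By density step the mean difference was 0.924, 0.786 and 0.560 points in MLL-AF9 and 1.22, 1.10 and 0.904 points in cMyc-Bcl2, from the sparsest to the densest, each with the smallest p its design allows. Among the windows chosen in this way, 52 (0.558%) gained in MLL-AF9 and 1 (0.0107%) was lower in knockin by as much. In cMyc-Bcl2 371 (3.98%) gained and 6 (0.0643%) were lower. Over all 22907 windows 6.29% gained in MLL-AF9 and 12.6% in cMyc-Bcl2, and over the CpG-dense ones 2.24% and 11.1%. Over all windows 0.188% and 1.75% were lower in this way, and over the CpG-dense ones 0.101% and 0.156%. The windows were chosen by a low WT level, so nothing is read from the distance to these shares.

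Both knockin groups could be compared with each other over the 8897 windows, since no methylation level of a knockin library took part in choosing them. Coverage did take part, since positions had to be read at least 10 times in all 10 libraries. The share of windows at 20% or more was 1.78% and 1.52% in cMyc-Bcl2 knockin and 0.506%, 0.405% and 0.101% in MLL-AF9 knockin. The difference of 1.31 points had an exact permutation p of 0.1, the smallest for 2 against 3 libraries (0.2 after adjustment over 8 comparisons). The mean level, 2.31% ± 0.0154 (SD, n = 2) in cMyc-Bcl2 knockin and 2.0% ± 0.235 (SD, n = 3) in MLL-AF9 knockin, did not pass either (exact permutation p = 0.2, adjusted p = 0.267). The mean difference reversed to -0.260 points when positions needed 20 reads and to -0.218 points when WT had to be under 5%. Subtracting each library's mitochondrial share, which was lower in cMyc-Bcl2 knockin than in MLL-AF9 knockin, gave 2.08 points for the mean and 1.81 points for the share at 20% or more (exact permutation p = 0.1 for each). Depth was higher in cMyc-Bcl2 knockin than in MLL-AF9 knockin, and its part in these differences was not tested.

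Of the 39 windows gained in MLL-AF9, 24 also gained in cMyc-Bcl2, which is 61.5% of the MLL-AF9 list and 9.09% of the cMyc-Bcl2 list. Among the 264 gained in cMyc-Bcl2, the MLL-AF9 difference was above 0 in 249 (94.3%) and had a median of 3.83 points, whereas over all 8897 windows it was above 0 in 6336 (71.2%). Among the 39 gained in MLL-AF9, the cMyc-Bcl2 difference was above 0 in 34 (87.2%), with a median of 12.5 points, whereas over all windows it was above 0 in 3535 (39.7%). The models share no library, but the WT libraries of both chose the windows. Of the 264 windows, 124 gained while all MLL-AF9 knockin libraries stayed under 10%.

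**Figure D3:**
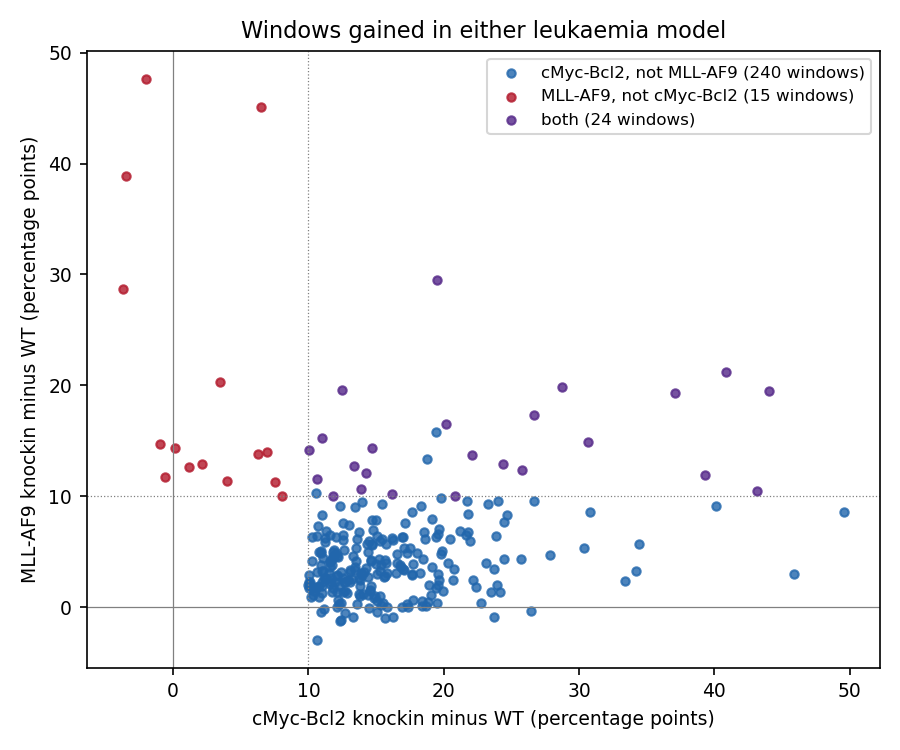
Knockin minus WT (percentage points) in cMyc-Bcl2 (x axis) and in MLL-AF9 (y axis) for each of the 279 windows gained in either model, with dotted lines at 10 points. The 24 windows gained in both are purple, and most blue points, gained in cMyc-Bcl2, lie above 0 but below 10 points in MLL-AF9.

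The largest gains of MLL-AF9 were uneven between libraries. The window chr5:44199001-44200000 was at 51.9%, 87.4% and 9.12% in knockin and 0.678%, 2.35% and 2.46% in WT. It stayed under 10% in cMyc-Bcl2, at 2.74% and 0.606% in knockin and 6.35% and 1.03% in WT. The window of the predicted gene Gm12841, chr4:117556001-117557000, was at 42.0%, 78.2% and 26.8% in MLL-AF9 knockin and 7.37%, 4.44% and 0% in WT. The window chr9:44076001-44077000 was at 72.7%, 32.7% and 14.0% in knockin and at 1.56% or less in WT. The window chr11:79787001-79788000 had 46.6% and 40.0% in knockin replicates 1 and 3 and only 1.44% in replicate 2, with WT at 1.14% or less. In these 4 windows no WT library reached the lowest knockin library, which was a condition of their choice. The highest and the lowest knockin library lay far apart.

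The 5 largest gains of cMyc-Bcl2 differed in how alike both knockin libraries were. The window of Them7 was at 54.9% and 50.5% in knockin and 2.10% and 4.23% in WT, and at 7.62%, 6.31% and 19.5% in MLL-AF9 knockin. The window chr5:120881001-120882000 was at 63.0% and 29.8% in cMyc-Bcl2 knockin and 6.83% and 4.20% in WT. The window chr11:66340001-66341000 was at 32.9% and 69.6% in cMyc-Bcl2 knockin and 7.50% and 3.26% in WT, from 4 covered positions. The window chr4:109655001-109656000 was at 21.9% and 66.7% in knockin and 0% and 2.17% in WT, from 3 positions. In the last 3, 1 knockin library had more than double the level of the other. Among the densest gained windows of cMyc-Bcl2, that beside Cnnm1, chr19:43515001-43516000 (261 listed and 41 covered positions, 98 bp from the matched start of Cnnm1), was at 21.7% and 15.7% in knockin and 4.63% and 1.45% in WT. The whole window of Begain (236 listed, 35 covered) was at 41.5% and 39.1% in knockin and 7.68% and 4.07% in WT, and at 13.0%, 11.8% and 6.87% in MLL-AF9 knockin. In both, the libraries of cMyc-Bcl2 knockin lay above WT, as a gain requires.

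Windows that gained in both models included one beside Elavl3, a neuronal RNA-binding protein, and one beside Pak6, a protein kinase. The window chr9:21855001-21856000, 467 bp from the start of Elavl3, was at 36.2%, 28.5% and 13.1% in MLL-AF9 knockin and 8.75%, 4.55% and 5.0% in WT. The cMyc-Bcl2 libraries had 34.4% and 31.6% in knockin and 6.10% and 2.49% in WT. The window 19 bp from the start of Pak6, chr2:118503001-118504000, was at 15.6%, 62.6% and 21.5% in MLL-AF9 knockin and 0.826%, 3.89% and 6.52% in WT. In cMyc-Bcl2 it was at 16.5% and 30.2% in knockin and 4.63% and 3.04% in WT. The window chr7:51612001-51613000 was at 23.9%, 26.1% and 34.7% in MLL-AF9 knockin and 8.16%, 8.30% and 9.62% in WT. It was at 43.7% and 56.2% in cMyc-Bcl2 knockin and 5.26% and 6.57% in WT. A window 181 bp from Hoxd9, a homeobox gene of body patterning, chr2:74536001-74537000, was among the densest gained in MLL-AF9, at 26.8%, 12.6% and 10.1% in knockin and 1.96%, 8.94% and 1.33% in WT. It was at 21.5% and 42.1% in cMyc-Bcl2 knockin and 4.67% and 7.38% in WT. In these 4 windows knockin and WT did not overlap in either model, as a gain in both requires.

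Gene starts could be placed in 4364 of the 8897 windows (49.1%), and these held the matched starts of 4861 genes. Of these windows, 10 (0.229%) gained in MLL-AF9 and 81 (1.86%) in cMyc-Bcl2, against 29 (0.640%) and 183 (4.04%) of the 4533 windows without one. Some of the windows without a matched start hold starts that could not be matched, and the shares were not tested. Their WT mean was higher, at 1.47% against 1.25% in MLL-AF9 and 1.78% against 1.37% in cMyc-Bcl2. Around matched starts the difference between knockin and WT was smallest at the start itself. In MLL-AF9 it was 0.323 points in the 250 bp before the start and 0.576 points from 1000 to 500 bp before it. In cMyc-Bcl2 it was 0.220 and 0.506 points over the same stretches, and 0.654 points from 500 to 1000 bp after the start. The cMyc-Bcl2 groups overlapped in both stretches before the start. In the 250 bp before it, knockin was at 1.29% and 1.30%, and WT replicates 1 and 2 at 1.31% and 0.843%. From 1000 to 500 bp before it, knockin was at 2.24% and 2.59%, and these WT replicates at 2.27% and 1.55%. The WT level was likewise lowest at the start, at 1.07% before it in MLL-AF9 and 1.08% in cMyc-Bcl2.

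The genes with a matched start were counted by lists, each gene by its densest window, beside all 4861 genes, of which 9 (0.185%) gained in MLL-AF9 and 81 (1.67%) in the cMyc-Bcl2 model. Of the developmental transcription factors other than Hox genes, 19 of 141 were in the set, with a median difference of 1.43 points for MLL-AF9 and 5.32 for cMyc-Bcl2, against 0.258 and -0.173 points over all genes. 2 of the 19 gained in MLL-AF9 (Lhx3 and Onecut1) and 5 in cMyc-Bcl2 (Nkx6-2, Msx1, Lhx3, Zic1 and Barhl2). Nkx6-2, a homeobox factor of the nervous system, was at 16.5% and 34.9% in cMyc-Bcl2 knockin and 4.25% and 4.83% in WT, and at 14.0%, 7.40% and 5.98% in MLL-AF9 knockin and 0.912%, 4.33% and 1.46% in WT. Lhx3, a LIM homeobox factor of the pituitary and motor neurons, was at 21.3%, 11.1% and 20.6% in MLL-AF9 knockin and 1.83%, 1.97% and 3.40% in WT. Its cMyc-Bcl2 values were 15.1% and 17.2% in knockin and 4.10% and 6.14% in WT. Onecut1, a factor of liver and pancreas, was at 18.3%, 18.5% and 10.9% in MLL-AF9 knockin and 7.41%, 2.63% and 3.70% in WT, from 3 covered positions. In cMyc-Bcl2 its libraries overlapped, at 19.7% and 7.53% in knockin and 8.53% and 3.60% in WT. Zic1 and Barhl2, factors of neural development, averaged 13.5% and 18.2% in cMyc-Bcl2 knockin and 2.30% and 7.05% in WT. Of the list, 13 genes stayed under 10% in MLL-AF9 knockin and 10 in cMyc-Bcl2 knockin.

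The neurotransmitter receptors, neuropeptides and ion channels had 12 of 70 genes in the set, with a median difference of 1.70 points for MLL-AF9 and 5.48 for cMyc-Bcl2. 1 gained in MLL-AF9 (Kcna2) and 5 in cMyc-Bcl2 (Npy, Kcna2, Gabbr2, Hcn4 and Chrna4). Kcna2, a voltage-gated potassium channel, was at 24.1%, 30.9% and 7.45% in MLL-AF9 knockin and 3.12%, 6.95% and 2.83% in WT. In cMyc-Bcl2 it was at 44.3% and 9.28% in knockin and 8.09% and 5.07% in WT, so 1 library carried most of the gain. Hcn4, a pacemaker channel, was at 23.8% and 11.5% in cMyc-Bcl2 knockin and 3.69% and 4.02% in WT. Chrna4, a nicotinic receptor subunit, was at 6.69% and 21.6% in knockin and 2.94% and 2.03% in WT. Npy was under 4% in all 6 MLL-AF9 libraries, at 2.80%, 1.81% and 0.763% in knockin and 2.38%, 2.27% and 3.16% in WT. Of the 2 Hox genes in the set, Hoxd13 gained in cMyc-Bcl2, at 4.94% and 22.9% in knockin and 2.90% and 1.13% in WT, from 4 covered positions, and Hoxa13 stayed.

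These lists also differed from the rest in what the WT libraries showed. In the developmental list 14 of 19 genes had a WT mean of 2% or more, and in the neural list 8 of 12, against 685 of 4861 (14.1%) over all genes. Of the 81 genes gained in cMyc-Bcl2, 77 were among those 685. The median number of covered positions was 9 in the developmental list, 23 in the neural list and 16 over all genes. The part of WT level and coverage in the counts of these lists was not tested.

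Over all 4861 genes with a matched start, 97.9% stayed under 10% in MLL-AF9 and 95.6% in cMyc-Bcl2, so shares near these say nothing particular of a list. All 31 housekeeping genes in the set stayed under 10% in both models, with a median difference of 0.252 points for MLL-AF9 and -0.200 for cMyc-Bcl2. Rplp0, a ribosomal protein gene, was at 1.72%, 2.80% and 1.27% in MLL-AF9 knockin and 0%, 0.441% and 0% in WT, and Eef1a1, a translation elongation factor, did not exceed 3.85% in any library. None of 14 haematopoietic regulators and none of 15 tumour suppressors or cell cycle inhibitors gained in either model. Runx1, a master regulator of blood formation, reached 45.7% in MLL-AF9 knockin replicate 2 and was at 2.54% and 1.10% in replicates 1 and 3, against 0.510%, 1.13% and 6.40% in WT. Gata2, a stem cell factor, was at 16.1% and 5.97% in cMyc-Bcl2 knockin and 2.76% and 3.43% in WT. Dapk1, a pro-apoptotic kinase, was at 17.4% and 12.7% in cMyc-Bcl2 knockin and 7.36% and 6.26% in WT, a difference of 8.21 points. The cell cycle inhibitor Cdkn1b averaged 2.09% in cMyc-Bcl2 knockin and 1.0% in WT, and the myeloid factor Cebpa 0.644% in knockin and 0.727% in WT. None of 3 Wnt antagonists and neither of 2 cadherin genes gained. The only germline gene in the set, Boll, averaged 11.2% in cMyc-Bcl2 knockin and 4.31% in WT, short of a gain of 10 points.

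**Figure D4:**
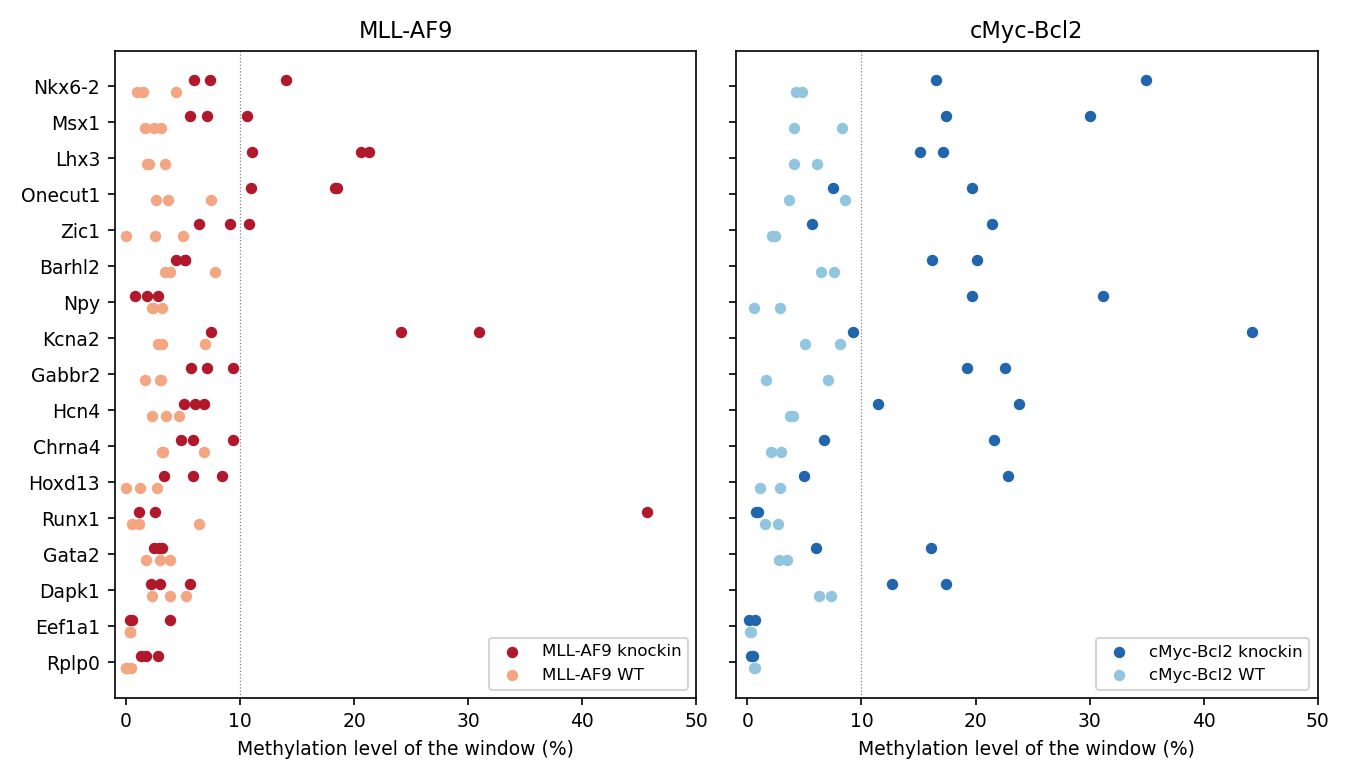
Methylation level (percent, x axis) of the window that holds the start of each named gene (y axis), with 1 point per library, in MLL-AF9 (left, knockin dark red and WT light) and cMyc-Bcl2 (right, knockin dark blue and WT light), and a dotted line at 10%. The developmental and neural genes shown, from Nkx6-2 to Hoxd13, are those that gained, and so reach 10% in knockin, most in cMyc-Bcl2. Of the developmental list 10 of 19 genes stayed under 10% in cMyc-Bcl2 knockin, and of the neural list 6 of 12. Runx1 reaches 10% in 1 MLL-AF9 library at 45.7%. In cMyc-Bcl2 knockin Gata2 does so in 1 library at 16.1%, and Dapk1 in both at 17.4% and 12.7%. Eef1a1 and Rplp0 stay near 0.

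Single knockin libraries also carried methylation that the others did not. In MLL-AF9, 13 windows were at 20% or more in knockin replicate 1 with replicates 2 and 3 under 10%, 12 in replicate 2 and 2 in replicate 3. In cMyc-Bcl2 there were 48 such windows in knockin replicate 1 and 27 in replicate 2, beside 53 at 20% or more in both. Gained windows lay on every autosome in cMyc-Bcl2, from 3 of 482 on chromosome 10 (0.622%) to 22 of 511 on chromosome 9 (4.31%). In MLL-AF9 they lay on 13 of the 19.

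Below the threshold, the shift of the whole set ran differently in the models. Knockin lay above WT without overlap, by any amount, in 1298 windows (14.6%) of MLL-AF9 and below WT in 121 (1.36%), against 17.7% and 1.55% of all 22907 windows and 15.1% and 1.46% of CpG-dense ones. In cMyc-Bcl2 knockin lay above WT in 1509 windows (17.0%) and below in 2088 (23.5%), against 24.7% and 18.0% of all windows and 24.4% and 19.8% of CpG-dense ones. As above, nothing is read from these distances. The median over the 8897 windows was 1.19%, 1.48% and 1.27% in MLL-AF9 knockin and 0.999%, 0.969% and 1.04% in WT. In cMyc-Bcl2 it was 0.755% and 0.764% in knockin and 1.26% and 0.796% in WT, a difference of -0.267 points, which was -0.0367 points without WT replicate 1. Without that library knockin lay above WT in 3320 windows and below it in 2814, and without WT replicate 2 above it in 2179 and below it in 4716, so which direction had more windows turned with the WT library left out. The mean was higher in knockin in both models, at 2.05%, 2.20% and 1.74% against 1.33%, 1.35% and 1.40% in MLL-AF9, and at 2.32% and 2.30% against 1.90% and 1.27% in cMyc-Bcl2. Without cMyc-Bcl2 WT replicate 1 the mean difference of that model was 1.38 points, against 0.726 with it.

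Levels near 0 differed between cytosines in MspI sites and those outside them. In the matched promoters of these windows, 6564 covered cytosines lay in MspI sites and 30227 outside them. Cytosines of MspI sites averaged 5.23%, 6.01% and 5.41% in MLL-AF9 knockin and 4.35%, 4.42% and 4.77% in WT, and 3.38% and 3.24% in cMyc-Bcl2 knockin and 4.81% and 2.89% in WT. The other cytosines were far lower, at 0.467%, 0.561% and 0.376% in MLL-AF9 knockin and 0.354%, 0.256% and 0.294% in WT. In cMyc-Bcl2 they were at 0.807% and 0.860% in knockin and 0.517% and 0.390% in WT. Outside MspI sites both knockin groups thus lay above their WT groups, with ratios of the means of 1.55 in MLL-AF9 and 1.84 in cMyc-Bcl2. At MspI sites the cMyc-Bcl2 groups overlapped, with a difference of -0.538 points that turned to 0.420 points without WT replicate 1. Cytosines at fragment ends can be filled in during library preparation. Where cytosines lay in their fragments was not measured, and the source of the values at MspI sites was not tested.

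Leaving out MspI sites, a step added after their levels were seen, changed counts in both models. In the 2827 windows whose matched promoters had enough covered cytosines both ways, cMyc-Bcl2 knockin lay below WT without overlap in 620 windows (21.9%) with all cytosines and in 215 (7.61%) without MspI sites. Without WT replicate 1 these counts were 923 and 695. MLL-AF9 knockin lay above WT without overlap in 330 windows (11.7%) with all cytosines and in 121 (4.28%) without MspI sites, with median differences of 0.219 and 0.0168 points. It lay below WT in 50 and 26 windows, and cMyc-Bcl2 knockin lay above WT in 367 and 387. Without MspI sites the median over windows was 0 in every MLL-AF9 WT library and at most 0.104% in any library. Libraries tied at 0 cannot count as free of overlap, and the part of this floor in the counts was not tested. The gained windows of cMyc-Bcl2 numbered 42 and 41 by these cytosines, and those of MLL-AF9 4 and 5. Of the 47 of these windows that gained by the whole window in cMyc-Bcl2, 37 did so with all promoter cytosines and 35 without MspI sites. The median difference of cMyc-Bcl2 was -0.128 points with all cytosines and 0 without MspI sites. Among cytosines outside MspI sites the ratio of knockin to WT means lay between 1.79 and 1.90 in cMyc-Bcl2 and between 1.49 and 1.64 in MLL-AF9 by the base after the CpG. By the base before it the ratio lay between 1.60 and 2.21 in cMyc-Bcl2 and between 1.38 and 1.99 in MLL-AF9.

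**Figure D5:**
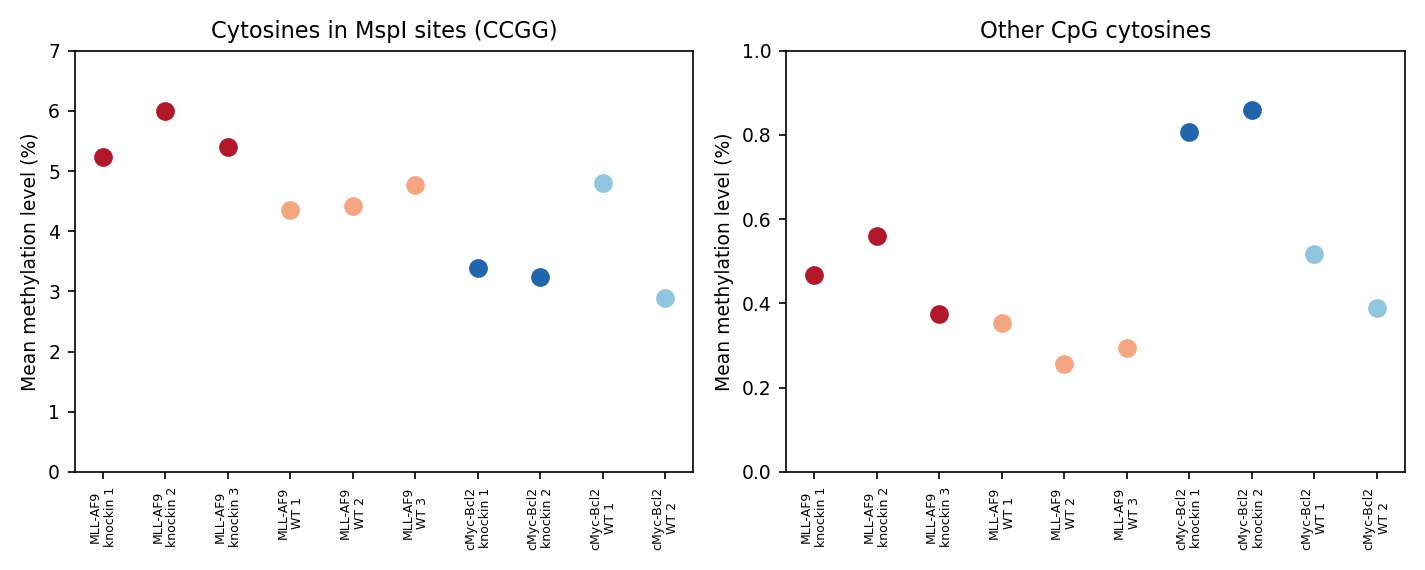
Mean methylation level (percent, y axis; the scales differ) per library (x axis) of promoter cytosines in MspI sites (left, 6564) and outside them (right, 30227). MspI sites lie between 2.89% and 6.01% in every library, and outside them both cMyc-Bcl2 knockin libraries, at 0.807% and 0.860%, lie above all others.

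Windows on either side of the bound of 10% varied widely. The windows just inside it were chr14:118634001-118635000, 1252 bp from Sox21, with a highest WT level of 9.99%, chr5:28791001-28792000 with 9.97%, and that of Plk1, a mitotic kinase, with 9.96%. The first was at 21.3% and 24.6% in cMyc-Bcl2 knockin and 7.09% and 9.99% in WT, and the third at 3.95% and 4.07% in knockin and 9.01% and 9.96% in WT. The windows just outside, chr8:8690001-8691000, chr11:98200001-98201000 and chr17:83614001-83615000, had 1 WT library each at 10%. The second of these was at 8.22% and 22.9% in cMyc-Bcl2 knockin and 10% and 1.76% in WT, and the first was at or below 0.266% in every other library.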

How the data were processed

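Genomic DNA of 10 leukaemia libraries was profiled by RRBS. Per the labels' protocols, MspI fragments with inserts between 40 and 280 bp were selected, and runs held 45% PhiX. The submitters' processing notes name mm9 as the build and list Bismark 0.7.4, Trim Galore 0.2.2, methylKit and CASAVA. The authors deposited, per cytosine of a CpG, a pair of counts, read here as methylated and unmethylated reads. Strands are listed separately: 2401038 of 7972927 positions have a neighbour on the next base.

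Positions with at least 10 reads in all 10 libraries were pooled per 1000-bp window. The 8897 windows, the gene lists and the tests were chosen with earlier results of these data known. Knockin against WT over them is a description. Tests were exact two-sided permutations over libraries, between knockin groups or on windows chosen by the other model's WT libraries. The gain rule was tested on simulated counts. Windows were named by fixed ranks: the 5 largest gains per model, the 5 largest common to both, the 3 densest gained per model, the 3 densest under 10%, and 3 either side of the bound. Genes were named from the 4 with the largest difference per list, not always all 4. Cebpa and Cebpb, which did not gain, were named outside this order. The other gained genes of a list were named after their values were seen.

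No mm9 genome was used. Promoters of RefSeq (GRCm38.p6) were placed on mm9 by CpG spacing: runs of 5 CpGs had to match, with 8 or more listed CpGs coinciding. Of 32851 promoters, 15982 had enough CpGs, 9601 had 1 place, and 9597 of those lay on the named chromosome. Some genes are therefore missing. Read calls numbered 14183423 to 45976478 per library. Reads are not independent molecules. Python 3.11.15, numpy 2.4.6 and pandas 2.3.3 were used. The closing section gives the alternatives tried.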

Additional observations from a re-analysis of the deposited data

Results flagged for a closer look

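The median level over the windows moved in opposite directions in the 2 models, knockin minus WT being 0.311 points for MLL-AF9 and -0.267 for cMyc-Bcl2, with no overlap of libraries in either. The difference between models was not tested. In cMyc-Bcl2 the median was 0.755% and 0.764% in knockin and 1.26% and 0.796% in WT, and WT replicate 2 lay close to the knockin libraries. Without WT replicate 1 the cMyc-Bcl2 difference was -0.0367 points.

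4 windows named in the text did the same, also untested between models. Knockin minus WT at chr9:44076001-44077000 was 38.9 points for MLL-AF9 and -3.49 for cMyc-Bcl2. At chr11:79787001-79788000 it was 28.7 points for MLL-AF9 and -3.72 for cMyc-Bcl2. At the window of Plk1 (chr7:129302001-129303000) it was 3.54 points for MLL-AF9 and -5.48 for cMyc-Bcl2, from 3 covered positions. At that of Rplp0 it was 1.78 points for MLL-AF9 and -0.190 for cMyc-Bcl2. Apart from the gains in the first pair, these windows stayed under 10% in all libraries.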

How the results depend on the processing

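Of 138 results under other settings 112 were counted as unchanged, and of 130 with 1 library left out 124 were. Results without a test had to keep their direction and size class. Results with an exact permutation test were counted as unchanged whenever their sign held, whatever their size, so for them the count concerns direction only. The cMyc-Bcl2 mean difference in windows chosen by the other model was so counted, though it fell from 1.01 to 0.208 points with at least 20 reads. With at least 20 reads per position there were 3033 windows, of which 2992 stayed in MLL-AF9 and 2949 in cMyc-Bcl2, and 5 and 36 gained. The mean difference was then 0.370 points for MLL-AF9 and 0.147 for cMyc-Bcl2, and cMyc-Bcl2 knockin minus MLL-AF9 knockin reversed to -0.260. With WT under 5%, 5 windows gained in MLL-AF9 and 48 in cMyc-Bcl2, the cMyc-Bcl2 difference was 0.136 and the one between knockin groups reversed to -0.218. With WT under 20%, 129 and 656 gained, with mean differences of 0.952 and 1.71. Subtracting each library's mitochondrial share gave 0.377 points for MLL-AF9 and 1.49 for cMyc-Bcl2. With a gain of at least 20 points, 7 and 50 windows gained. On the median over windows the cMyc-Bcl2 difference chosen by the other model reversed to -0.275. With strands joined and 60 or more dinucleotides, added after seeing the data, there were 5031 windows, 4881 and 4649 stayed, and 16 and 143 gained.

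With 1 library left out, members numbered 8726 to 9475, windows that stayed 8406 to 9026 in MLL-AF9 and 8037 to 8542 in cMyc-Bcl2, and gained windows 28 to 73 and 254 to 451. The mean difference ranged from 0.521 to 0.752 points for MLL-AF9 and from 0.517 to 1.38 for cMyc-Bcl2. The causes of these shifts were not tested, beyond the fewer or more windows and libraries that a setting leaves. Exact permutation tests of 2 or 3 libraries a group cannot pass 0.05 under any setting. No paired analysis was possible because the labels give no replicate numbers, and those used here follow accession order and only name libraries.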
